A study of Homo sapiens with 4 samples.

Results

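The regions described here are peaks of HuR-bound RNA that lie in 6 intervals of human chromosome 19 known for their clusters of KRAB zinc-finger genes. They were taken from 2 lists of peaks made in WS1, an established line of human skin fibroblasts. WS1 cells were given 5 Gy of X-rays, or 0 Gy, and RNA was recovered at each dose with HuR and, separately, with control immunoglobulin (IgG). That makes 4 libraries, with 1 library per group: HuR at 5 Gy, IgG at 5 Gy, HuR at 0 Gy and IgG at 0 Gy. Each list sets a HuR library over the IgG library of the same dose, on the genome build hg19. A peak was counted as a member when its midpoint lay in one of the intervals. This gave 484 of the 36216 peaks in the 5 Gy list and 674 of the 47930 peaks in the 0 Gy list, or 1158 of 84146 peaks in both lists. The rest of chromosome 19 held 972 peaks at 5 Gy and 1208 at 0 Gy and served for comparison.

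The intervals are named A to F here in the order of the chromosome. Cluster A runs from 11.7 to 12.6 Mb, cluster B from 19.9 to 24.4 Mb, cluster C from 36.6 to 38.4 Mb, cluster D from 44.2 to 44.9 Mb, cluster E from 52.3 to 53.9 Mb and cluster F from 57.6 to 58.8 Mb. Together they cover 10.7 Mb. The span from the first to the last peak on the chromosome was 58.8 Mb, which leaves 48.1 Mb outside the clusters. The lists hold no gene names and no strand, and no hg19 annotation was used, so the gene content of the intervals rests on how they were defined and peaks are named by position. For the same reason the labelled cell type could not be checked against marker genes. Nor were any zinc-finger genes outside the intervals removed from the rest of chromosome 19. No p-value was computed, because each dose is represented by 1 HuR and 1 IgG library and peaks are not replicates. The 95% intervals given below cover counting error only, and the read depth of the libraries is unknown.

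HuR, the product of ELAVL1, is an RNA-binding protein that binds U-rich and AU-rich stretches, in introns and 3′ untranslated regions above all, and is known to stabilise many of its mRNAs. KRAB zinc-finger proteins are DNA-binding repressors. Their KRAB domain recruits the corepressor TRIM28 (KAP1), and their arrays of C2H2 zinc fingers recognise DNA, transposable elements in many cases. The genes arose by tandem duplication and lie side by side, and the finger array of a typical member is encoded by a single long last exon. In the RefSeq gene table, which is on another build and was used for symbols only, 263 of the 1451 protein-coding genes of chromosome 19 (18.1%) carry a symbol beginning with ZNF, ZFP, ZSCAN or ZIK followed by a number. Chromosome 19 holds 47.0% of the 560 such genes of the genome. A symbol of this kind does not show that the protein has a KRAB domain.

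Peaks were denser in the zinc-finger clusters than elsewhere on chromosome 19 at both doses. At 5 Gy there were 45.2 peaks per Mb in the clusters (95% interval 41.3 to 49.4) and 20.2 per Mb in the rest of the chromosome (18.9 to 21.5), a ratio of 2.24 (2.01 to 2.50). At 0 Gy there were 63.0 peaks per Mb in the clusters (58.3 to 67.9) and 25.1 per Mb in the rest (23.7 to 26.5), a ratio of 2.51 (2.28 to 2.76). In covered length, peaks took up 51.3 kb per Mb of the clusters and 19.3 kb per Mb of the rest at 5 Gy, and 58.4 and 20.6 kb per Mb at 0 Gy. Part of the contrast lay in stretches with no peak at all. A stretch of 3.92 Mb (chr19:24325537-28246031), which reaches into the end of cluster B and spans the centromere, and a stretch of 2.37 Mb (chr19:30504162-32873607) held no peak of either list. Without both stretches the ratio was 1.96 at 5 Gy and 2.2 at 0 Gy.

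The clusters differed among themselves in peak density, by 3.34-fold from the sparsest to the densest at 5 Gy and by 2.82-fold at 0 Gy. Cluster E was the densest at 5 Gy with 76.3 peaks per Mb (63.3 to 91.0), followed by cluster F with 66.7 per Mb (52.9 to 83.0). At 0 Gy, cluster F had 92.5 peaks per Mb (76.1 to 111.4) and cluster E 90.6 (76.5 to 106.6). The ratio of densities, cluster E over cluster F, was 1.14 at 5 Gy (0.86 to 1.52) and 0.98 at 0 Gy (0.77 to 1.25), so the order of these 2 clusters was not resolved. Cluster B, the longest interval, had 41.3 peaks per Mb at 5 Gy (35.6 to 47.7) and 60.7 at 0 Gy (53.7 to 68.3). Cluster C had 32.8 per Mb at 5 Gy (24.95 to 42.3) and 46.7 at 0 Gy (37.2 to 57.8). Clusters A and D were the sparsest at 5 Gy, with 23.3 per Mb (14.4 to 35.7) and 22.9 per Mb (13.1 to 37.1), and both intervals included the 20.2 per Mb of the rest of the chromosome. At 0 Gy cluster A had 42.2 per Mb (29.9 to 58.0), above the rest, and cluster D had 32.9 per Mb (20.8 to 49.3), an interval that included the 25.1 per Mb of the rest.

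**Figure D1:**
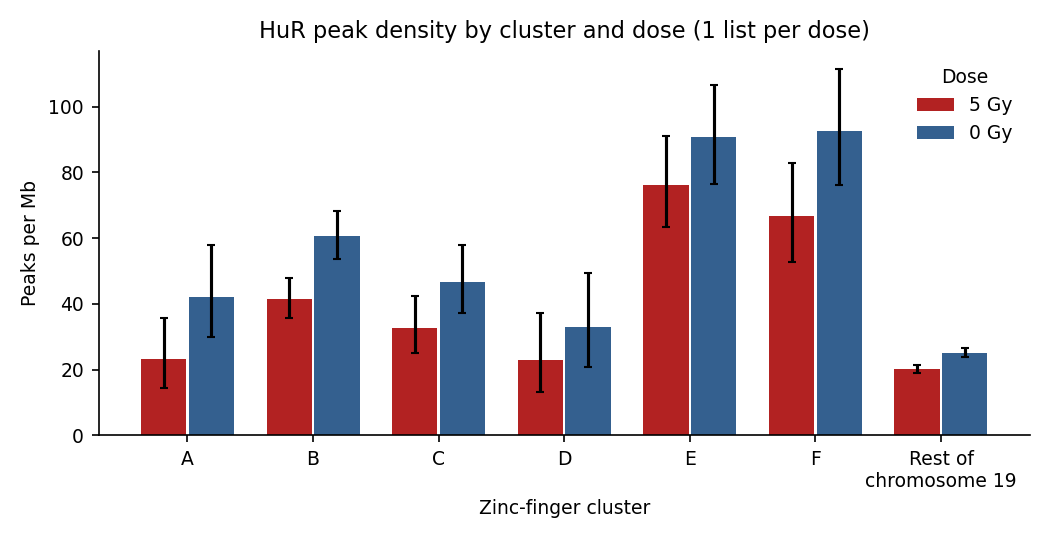
Peaks per Mb in clusters A to F and in the rest of chromosome 19, with the 5 Gy list (red) left of the 0 Gy list (blue) in each pair; bars are the value of 1 list and error bars are exact Poisson 95% intervals of the peak count. Clusters E and F stand highest at both doses, and every cluster has fewer peaks at 5 Gy than at 0 Gy.

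Each of the 6 clusters held fewer peaks at 5 Gy than at 0 Gy, as did the genome as a whole. In the clusters the 5 Gy count came to 71.8% of the 0 Gy count (95% interval 63.9 to 80.7), 80.5% in the rest of chromosome 19 (73.9 to 87.6) and 75.5% on the other chromosomes (74.4 to 76.5). The clusters' value over that of the rest was 0.89 (0.77 to 1.03), and over that of the other chromosomes 0.95 (0.85 to 1.07), so neither interval excluded 1. Cluster A had 21 peaks at 5 Gy and 38 at 0 Gy (55.3%, 32.6 to 93.6), cluster B 186 and 273 (68.1%, 56.6 to 82.1), cluster C 59 and 84 (70.2%, 50.4 to 97.8), and cluster F 80 and 111 (72.1%, 54.1 to 96.0). Cluster D had 16 peaks at 5 Gy and 23 at 0 Gy (69.6%, 37.1 to 130.3), and cluster E had 122 and 145 (84.1%, 66.2 to 107.0), so that neither interval excluded equal numbers. With peaks joined across up to 10 kb, the 5 Gy number in the clusters was 88.2% of the 0 Gy number (71.2 to 109.3).

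Covered length changed less than peak number. The cluster peaks covered 549 kb at 5 Gy and 625 kb at 0 Gy (87.8%), against 931 and 991 kb in the rest of chromosome 19 (93.9%). In cluster E the covered length was 150 kb at 5 Gy and 148 kb at 0 Gy (102.0%), with fewer and longer peaks at 5 Gy. In cluster B it was 174 kb at 5 Gy and 220 kb at 0 Gy (78.9%), and in cluster A 18.2 kb and 26.9 kb (67.5%). The drop was spread over many places. Of the 107 windows of 100 kb in the clusters, 69 held fewer peaks at 5 Gy than at 0 Gy, 8 held more, 10 held as many, and 20 held no peak at either dose. In the rest of the chromosome, 132 of 422 windows held fewer peaks at 5 Gy, 50 held more, 66 held as many, and 174 were empty; windows there held fewer peaks to begin with, with a median of 1 peak per window at both doses, against 3 at 5 Gy and 5 at 0 Gy in the clusters.

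Over all scores, the median length of cluster peaks was close to that of other peaks on chromosome 19, but peaks under 300 bp were less common in the clusters. Peaks under 300 bp made up 4.55% of the cluster peaks and 9.47% of the rest at 5 Gy (difference -4.92 points, -7.44 to -2.12), and 7.57% and 15.5% at 0 Gy (-7.91 points, -10.7 to -4.95). On the other chromosomes they made up 11.9% at 5 Gy and 16.6% at 0 Gy. The next class went the other way. Peaks from 300 to under 400 bp made up 19.2% of the cluster peaks and 15.4% of the rest at 5 Gy. At 0 Gy they made up 29.8% and 23.2%. The median length was 598 bp in the clusters (95% interval 551 to 645) and 584.5 bp in the rest (551 to 611) at 5 Gy. At 0 Gy it was 471 bp in the clusters (441 to 506) and 487 bp in the rest (462 to 516). The difference, clusters minus rest, came to 13.5 bp for the 5 Gy list (95% interval -40.5 to 71.2) and to -16.0 bp for the 0 Gy list (-57.7 to 27.0). Among scores of 100 or more the difference was 112.5 bp at 5 Gy (11.6 to 225.9) and 48.0 bp at 0 Gy (-12.1 to 134.7). The 5 Gy median over all scores was 1.27 times the 0 Gy median in the clusters and 1.20 times in the rest. By cluster, the median at 5 Gy ranged from 429.5 bp in cluster D to 674.5 bp in cluster F, and at 0 Gy from 378 bp in cluster C to 509 bp in cluster D.

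Among peaks with high scores, in contrast, those in the zinc-finger clusters were the longer ones. The score of a peak was deposited by the authors with each list. It starts at 60, where a peak just passes, and 3100 is a value shared by many peaks (26 of the cluster peaks at 5 Gy and 34 at 0 Gy). A few peaks scored above it, with 1 of them in the clusters, at 0 Gy. For scores of 1000 or more, the median length at 5 Gy was 3070 bp in the clusters (95% interval 2139 to 3837, 59 peaks) and 1579 bp in the rest of chromosome 19 (1226 to 1989, 163 peaks). At 0 Gy it was 2700 bp in the clusters (2226 to 3472, 82 peaks) and 1550 bp in the rest (1122 to 1843, 204 peaks). The ratio of medians was 1.94 at 5 Gy (1.27 to 2.72) and 1.74 at 0 Gy (1.34 to 2.62). The high-scoring peaks of the other chromosomes had medians of 1978.5 bp at 5 Gy and 1721 bp at 0 Gy, so the cluster peaks exceeded them by 1.55-fold and 1.57-fold.

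The contrast was also seen in the share of long peaks. Of all peaks in the lists, whatever their score, 11.1% at 5 Gy and 7.98% at 0 Gy were at least 2 kb long. Of the cluster peaks that scored 1000 or more, 40 of 59 at 5 Gy (67.8%) and 53 of 82 at 0 Gy (64.6%) reached 2 kb, against 68 of 163 (41.7%) and 79 of 204 (38.7%) in the rest of chromosome 19. The difference was 26.1 percentage points at 5 Gy (95% interval 11.2 to 38.9) and 25.9 at 0 Gy (13.1 to 37.4). On the other chromosomes, 49.6% of the peaks scoring 1000 or more reached 2 kb at 5 Gy and 44.7% at 0 Gy. The clusters lay above these by 18.2 points at 5 Gy (5.44 to 28.8) and 19.9 points at 0 Gy (9.03 to 29.5). Without the limit on the score, peaks of at least 2 kb made up 12.8% of the cluster peaks and 11.8% of the rest at 5 Gy, and 10.8% and 8.36% at 0 Gy, with both intervals of the difference including 0. Peaks of at least 4 kb made up 4.75% of the cluster peaks and 2.26% of the rest at 5 Gy (difference 2.49 points, 0.55 to 4.89), and 3.86% and 1.74% at 0 Gy (2.12 points, 0.61 to 3.95). On the other chromosomes they made up 2.99% at 5 Gy and 2.11% at 0 Gy. The clusters lay above these by 1.77 points (0.19 to 4.05) and 1.75 points (0.53 to 3.49).

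**Figure D2:**
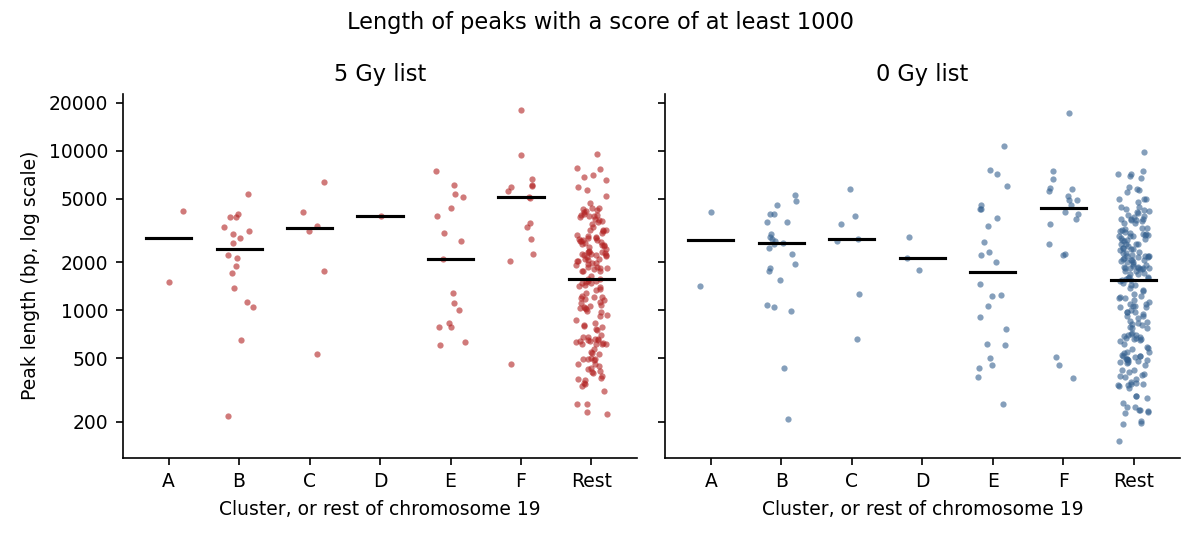
Length of every peak scoring 1000 or more in clusters A to F and in the rest of chromosome 19 (log scale), in the 5 Gy list (left) and the 0 Gy list (right); each point is 1 peak and black lines are medians. The median of each cluster lies above that of the rest at both doses, and cluster F has the highest, 5102 bp at 5 Gy and 4378.5 bp at 0 Gy. Cluster A has 2 such peaks at each dose, and cluster D has 1 at 5 Gy and 3 at 0 Gy. The intervals of clusters A, C and E include the median of the rest at both doses, as does that of cluster B at 5 Gy.

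The medians lay close together in the lowest score classes and apart in the highest. The interval of the ratio of medians, clusters over rest, excluded 1 in each class from 250 upward at 5 Gy and in each class from 500 upward at 0 Gy, and included 1 in every lower class. From 60 to under 70, the median was 390.5 bp in the clusters and 392 bp in the rest at 5 Gy, and 339 and 343 bp at 0 Gy. From 250 to under 500 it was 1025.5 bp in the clusters (923 to 1212) and 787 bp in the rest (711 to 908) at 5 Gy, and 912 bp (756 to 1018) and 749.5 bp (662 to 901) at 0 Gy. From 500 to under 1000 it was 1705 bp (1214 to 2336) and 852 bp (610 to 1530) at 5 Gy, and 1427 bp (865 to 1648) and 687.5 bp (578 to 985) at 0 Gy. From 1000 to under 3000 it was 2648 bp (1760 to 3323) and 1206.5 bp (809 to 1950) at 5 Gy, and 2231 bp (1273 to 2871) and 1053 bp (678 to 1553) at 0 Gy. At 3000 and over it was 3859 bp in 26 cluster peaks (2244 to 5395) and 1854 bp in 75 peaks of the rest (1418 to 2317) at 5 Gy, and 3774.5 bp in 36 (2618 to 4316) and 1855 bp in 103 (1547 to 2179) at 0 Gy.

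**Figure D3:**
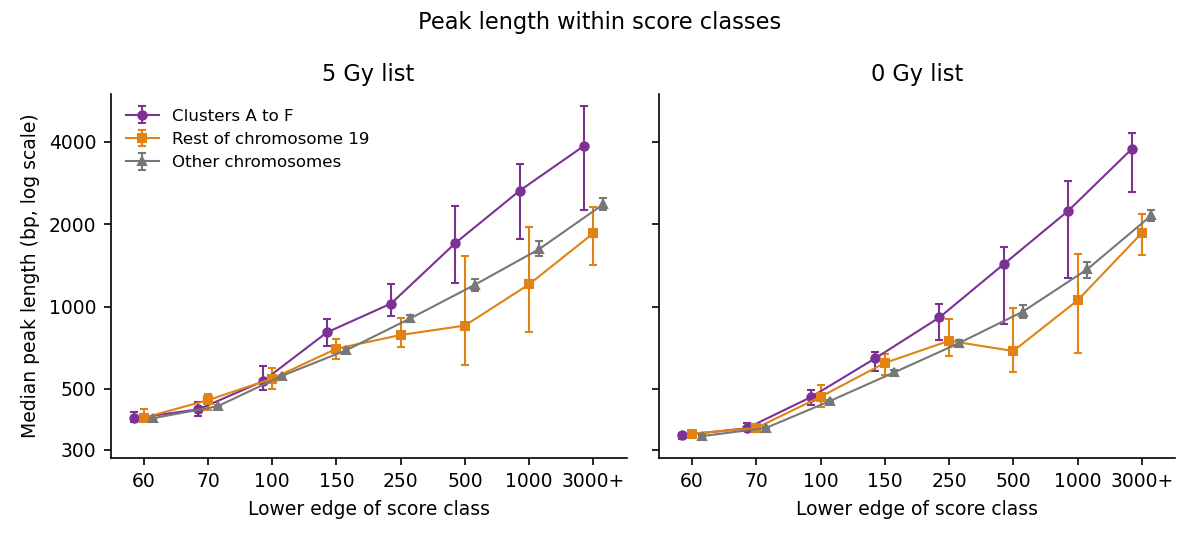
Median peak length (bp, log scale) within classes of score, labelled by their lower edge, for the clusters, the rest of chromosome 19 and the other chromosomes, in the 5 Gy list (left) and the 0 Gy list (right); error bars are 95% intervals from order statistics. The 3 groups run together at low scores, and the clusters lie above both others from 500 upward.

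Cluster F carried the longest of these peaks. Of its 15 peaks that scored 1000 or more at 5 Gy, 14 were at least 2 kb long, as were 17 of 20 at 0 Gy. These peaks made up 59.1% of the sequence covered in cluster F at 5 Gy and 62.2% at 0 Gy. In the clusters together the corresponding shares were 37.0% and 41.3%, and in the rest of chromosome 19 they were 35.4% and 39.3%. Without cluster F, the ratio of medians to the rest was 1.70 at 5 Gy (1.03 to 2.38) and 1.55 at 0 Gy (1.08 to 2.24).

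The longest peak of each cluster had a counterpart at the other dose. In cluster F it was the longest of its whole list at both doses, with 18027 bp at 5 Gy (chr19:57801966-57819992) and 17257 bp at 0 Gy (chr19:57801817-57819073), each with a score of 3100. In cluster E it was 12069 bp long at 5 Gy (chr19:53145595-53157663, score 695.03) and 10764 bp long at 0 Gy (chr19:53146976-53157739, score 2741.88). By length they held place 10 of the whole 5 Gy list and place 11 of the whole 0 Gy list. Cluster C had a peak of 6391 bp at 5 Gy (chr19:37235336-37241726) over one of 5775 bp at 0 Gy (chr19:37236084-37241858), both scoring 3100. The longest 5 Gy peaks of clusters C, E and F each lay over 2 peaks of the 0 Gy list, the longer of which is given here.

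In cluster B the longest peak was 5331 bp at 5 Gy (chr19:23401529-23406859, score 2580.03) and 5262 bp at 0 Gy (chr19:23401535-23406796, score 2790.25). Their starts differ by 6 bases. In cluster A it was 4181 bp at 5 Gy (chr19:12252846-12257026) and 4144 bp at 0 Gy (chr19:12252908-12257051), both with a score of 3100. Cluster D was the exception, with a different longest peak at each dose. That at 5 Gy, of 3881 bp (chr19:44589855-44593735, score 1769.43), lay over 2 peaks of the 0 Gy list, and that at 0 Gy, of 3453 bp (chr19:44610520-44613972, score 715.01), lay over a 5 Gy peak of 3475 bp.

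High scores were less common in the clusters than in the rest of chromosome 19. Over the whole lists, 13.1% of peaks at 5 Gy and 12.2% at 0 Gy scored at least 1000. In the clusters the share was 12.2% at 5 Gy and 12.2% at 0 Gy, against 16.8% and 16.9% in the rest of the chromosome. The difference, clusters minus rest, was -4.58 percentage points at 5 Gy (95% interval -8.19 to -0.67) and -4.72 points at 0 Gy (-7.88 to -1.37). Cluster B held 18 such peaks among its 186 in the 5 Gy list (9.68%) and 24 among its 273 in the 0 Gy list (8.79%). Without cluster B both intervals included 0, at -3.01 points (-7.26 to 1.89) at 5 Gy and -2.42 points (-6.24 to 1.86) at 0 Gy. The clusters were thus near the level of the whole lists, and the rest of chromosome 19 lay above it. The median score was 137.24 in the clusters (123.18 to 162.07) and 156.6 in the rest (144.18 to 172.13) at 5 Gy, and 125.0 (115.55 to 139.07) and 152.42 (138.76 to 168.10) at 0 Gy. The difference in median score was -19.4 at 5 Gy (-40.3 to 8.39) and -27.4 at 0 Gy (-45.7 to -7.80). The lists give no RNA level, so a higher score cannot be told apart from more of the RNA.

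The share of cluster peaks that overlapped a peak of the other dose by at least 1 bp depended on the list. Over the whole lists, 73.0% of 5 Gy peaks and 58.1% of 0 Gy peaks were shared in this way. At 5 Gy, 367 of 484 cluster peaks were shared (75.8%, 71.8 to 79.4), against 75.6% in the rest of chromosome 19 (72.8 to 78.2), a difference of 0.21 points (-4.57 to 4.77). At 0 Gy, 382 of 674 cluster peaks were shared (56.7%, 52.9 to 60.4), against 64.4% in the rest (61.7 to 67.1), a difference of -7.73 points (-12.3 to -3.13). The 0 Gy clusters were near the whole list, and the rest of chromosome 19 above it. With the rest weighted to the score classes of the cluster peaks, the 0 Gy difference was -3.32 points, and when both lists were limited to scores of 100 or more it was -1.52 points (-7.16 to 3.96).

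At 0 Gy the clusters had a lower shared percentage than the rest of chromosome 19 among peaks with low scores. Under a score of 250, 40.6% of 478 cluster peaks at 0 Gy were shared, against 46.9% of 764 in the rest (difference -6.27 points, -11.9 to -0.59). From 60 to under 70, 30.2% were shared in the clusters, 30.9% in the rest and 25.8% on the other chromosomes. From 70 to under 100 the shares were 25.6%, 36.6% and 30.4%, and from 100 to under 150 they were 45.2%, 52.5% and 47.6%. From 150 to under 250 they were 70.2%, 69.3% and 65.4%. The clusters thus lay below the other chromosomes only in the classes from 70 to under 150. From 250 upward, 95.9% of 196 cluster peaks and 94.6% of 444 peaks of the rest were shared (difference 1.32 points, -2.83 to 4.53). At 5 Gy, 63.6% of 316 cluster peaks and 61.5% of 602 peaks of the rest were shared under a score of 250, and 98.8% and 98.6% from 250 upward. Every cluster peak scoring 500 or more had a counterpart at the other dose, which was 94 peaks at 5 Gy and 129 at 0 Gy. The rest of chromosome 19 was nearly the same at this score, with 242 of 242 peaks shared at 5 Gy and 293 of 296 at 0 Gy.

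**Figure D4:**
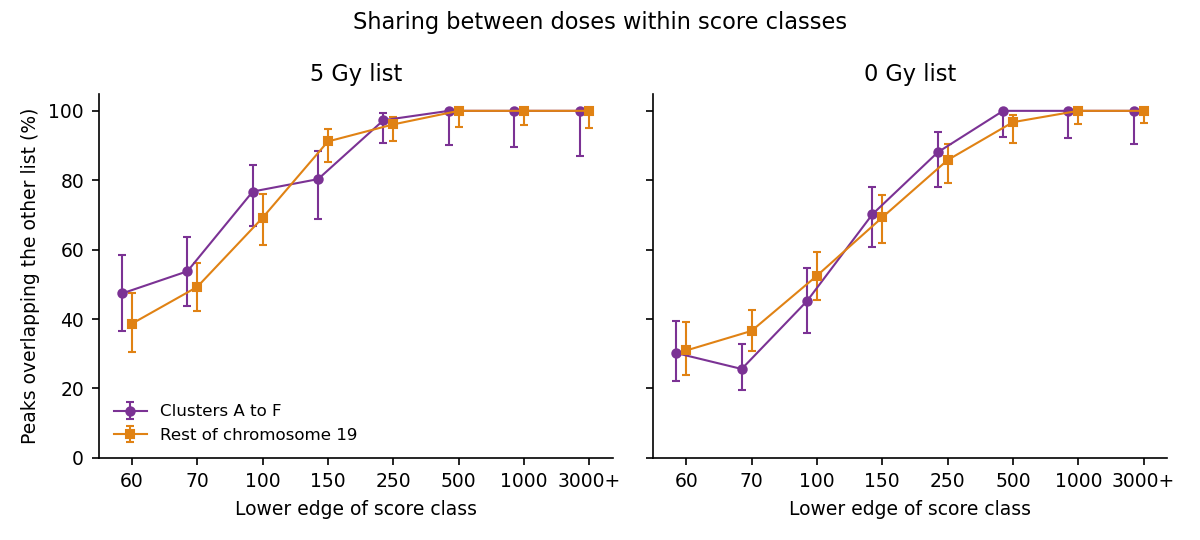
Percentage of peaks that overlap a peak of the other list within classes of score, labelled by their lower edge, for the clusters and the rest of chromosome 19, in the 5 Gy list (left) and the 0 Gy list (right); error bars are Wilson 95% intervals. At 0 Gy the clusters lay furthest below the rest from 70 to under 100 (25.6% against 36.6% shared) and were near it from 60 to under 70 (30.2% against 30.9%). At 5 Gy they lay above the rest from 60 to under 70 (47.4% against 38.7%) and below it from 150 to under 250 (80.3% against 91.2%). From 500 upward all cluster peaks were shared at both doses, as were all peaks of the rest at 5 Gy and 293 of 296 at 0 Gy.

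By cluster, sharing at 5 Gy ranged from 56.3% in cluster D (9 of 16 peaks) to 82.8% in cluster B (76.7 to 87.5), and sharing at 0 Gy from 42.9% in cluster C (32.8 to 53.5) to 64.1% in cluster E (56.1 to 71.5). Counted in bases, 437 kb were covered at both doses in the clusters, or 79.7% of what the 5 Gy peaks cover and 69.96% of what the 0 Gy peaks cover. In the rest of chromosome 19 the shares were 75.8% and 71.2%. Cluster F overlapped most by this measure, with 87.0% of its 5 Gy coverage and 82.0% of its 0 Gy coverage in common, and cluster A least, with 67.7% and 45.7%.

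Peaks without a counterpart were weak and short. There were 117 at 5 Gy, with a median score of 80.3 and a median length of 407 bp, and 292 at 0 Gy, with a median score of 84.1 and a median length of 374.5 bp. A score under 150 was found for 103 of them at 5 Gy (88.0%) and 253 at 0 Gy (86.6%), against 92.8% and 82.6% in the rest of chromosome 19. The nearest peak of the other list lay within 1 kb for 58 of those at 5 Gy (49.6%) and 109 of those at 0 Gy (37.3%), against 37.6% and 36.7% in the rest. No interval of these differences was computed. Peaks of both lists were denser in the clusters, and the distances were not adjusted for this.

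The highest score without a counterpart at 5 Gy was 357.49, for a 425 bp peak in cluster F (chr19:58427531-58427955) whose nearest 0 Gy peak was 579 bp away. It was followed by peaks in cluster C (chr19:37063758-37064412, score 273.84), cluster E (chr19:53189607-53190531, score 246.16) and again cluster E (chr19:53232818-53233561, score 233.85), and by one in cluster F (chr19:57930929-57931912, score 226.58). The nearest 0 Gy peak was 14.5 kb away for the second of those in cluster E and under 0.3 kb away for the other three.

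At 0 Gy the highest score without a counterpart was 395.61, for a 374 bp peak in cluster E (chr19:52709181-52709554), 4.78 kb from the nearest 5 Gy peak. The next were in cluster B (chr19:20220273-20221683, score 371.75, and chr19:24101968-24102447, score 360.37), cluster F (chr19:58412623-58413705, score 343.08) and cluster B (chr19:23439820-23442564, score 295.92). The last of these was 2745 bp long and 3.11 kb from the nearest 5 Gy peak, the longest of the 10 peaks named here. Both of the others in cluster B lay under 0.4 kb from a 5 Gy peak.

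The clusters held 228 pairs made of a 5 Gy peak and a 0 Gy peak that overlapped no further peak. Within these pairs the lengths were close. The median ratio of lengths, 5 Gy over 0 Gy, was 1.01 in the clusters (95% interval 0.99 to 1.04) and 1.02 in 544 pairs of the rest of chromosome 19 (1.01 to 1.04). The score was higher at 5 Gy in 76 of the cluster pairs (33.3%, 27.5 to 39.7), equal in 16, and lower in the others. In the rest of the chromosome it was higher at 5 Gy in 31.8% of pairs (28.0 to 35.8). Among the 206 cluster pairs with both scores under 3000, the median ratio of scores was 0.78 (0.68 to 0.86), against 0.81 in the rest (0.74 to 0.87). A score grows with read depth, which is unknown, so scores were also ranked among the 772 pairs of chromosome 19. The median difference in percentile rank, 5 Gy minus 0 Gy, was -0.19 points in the clusters (-2.91 to 1.81) and 1.81 points in the rest (0.26 to 1.81). Every pair with a score of 3100 in both lists has a rank difference of 1.81 points, which comes from the handling of ties. The median of the rest is this tied value, so it does not show a shift in score.

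Cluster C had the highest share of pairs with a higher score at 5 Gy. This was so in 15 of its 23 pairs (65.2%, 44.9 to 81.2), against 28.1% of 89 pairs in cluster B (19.8 to 38.2), 29.8% of 57 in cluster E (19.5 to 42.7) and 31.1% of 45 in cluster F (19.5 to 45.7). Cluster C was singled out as the highest of 6, so this is a description, and the difference between clusters was not tested. The median ratio of scores under 3000 was 1.16 in cluster C (0.65 to 1.42), an interval that includes 1, and 0.69 in cluster B (0.58 to 0.82). Clusters A and D had 8 and 6 pairs, with intervals that spanned most values.

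**Figure D5:**
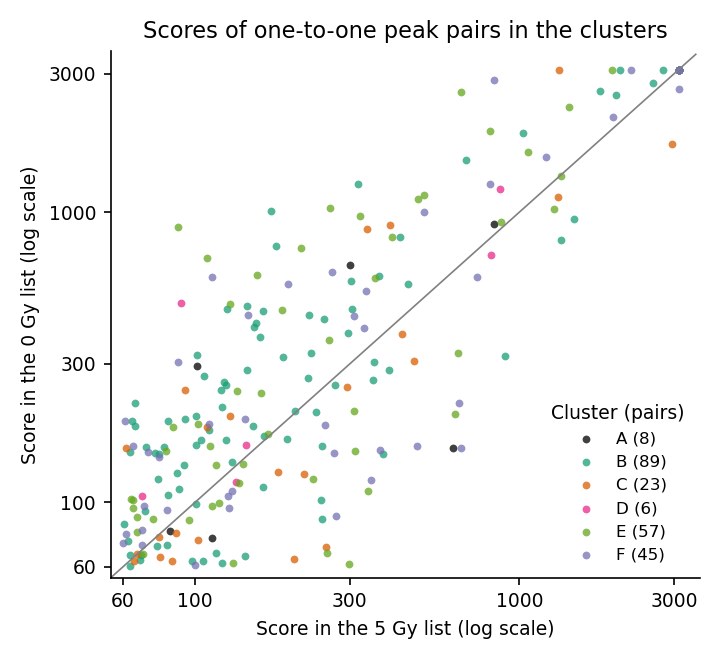
Scores of the 228 one-to-one pairs of cluster peaks, in the 5 Gy list (horizontal axis) and in the 0 Gy list (vertical axis), both on log scales; each point is 1 pair, coloured by cluster, and the line marks equal scores. Most points lie above the line, since the score was higher at 5 Gy in 76 of 228 pairs.

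The pairs whose rank rose most at 5 Gy lay in clusters E, C and F. A peak of cluster E (chr19:52598315-52599041) scored 297.63 at 5 Gy and 61.60 at 0 Gy with almost the same ends at both doses (727 and 732 bp), a rise of 55.8 percentile points. Another of cluster E (chr19:53183209-53183939) scored 256.15 at 5 Gy and 66.96 at 0 Gy, and was 731 bp long at 5 Gy and 284 bp at 0 Gy. In cluster C, chr19:36714926-36715860 scored 253.56 at 5 Gy and 70.22 at 0 Gy, and chr19:37262189-37263564 scored 201.59 and 63.99. In cluster F, a peak of 3261 bp (chr19:58264553-58267813) scored 659.88 at 5 Gy and 154.29 at 0 Gy. Its direct neighbour moved the other way. The next peak (chr19:58267821-58269496) scored 112.60 at 5 Gy and 596.23 at 0 Gy. The gap between both peaks was 7 bases at 5 Gy and 301 bases at 0 Gy.

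The largest fall in rank, by 54.8 points, was in cluster E (chr19:53744645-53745760), with a score of 88.79 at 5 Gy and 886.35 at 0 Gy. It was followed by cluster D (chr19:44342460-44342820), with 90.45 at 5 Gy and 487.19 at 0 Gy and a length of 361 bp against 1264 bp. In cluster E, chr19:52877303-52878007 scored 108.93 at 5 Gy and 696.57 at 0 Gy although it was longer at 5 Gy (705 against 403 bp). The fifth, in cluster F (chr19:58258191-58258481), kept its length (291 and 295 bp) with scores of 60.80 at 5 Gy and 191.35 at 0 Gy. These 10 pairs were picked for their difference, which is therefore a description.

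Some peaks lay over several of the other list. At 5 Gy, 68 of 484 cluster peaks (14.05%, 11.2 to 17.4) lay over at least 2 peaks of the 0 Gy list, against 9.67% in the rest of chromosome 19 (7.97 to 11.7). At 0 Gy, 50 of 674 cluster peaks (7.42%, 5.67 to 9.65) lay over at least 2 peaks of the 5 Gy list, against 5.55% in the rest (4.39 to 6.98). The difference was 4.38 points at 5 Gy (0.92 to 8.16) and 1.87 points at 0 Gy, where the interval included 0 (-0.39 to 4.38). The share over the whole lists was not computed, so the excess at 5 Gy holds only against the rest of chromosome 19. Peaks of the 0 Gy list were also denser in the clusters (63.0 against 25.1 per Mb), and the part of density in the difference was not tested. A 1642 bp peak of cluster B at 5 Gy (chr19:23868344-23869985, score 592.79) lay over 4 peaks at 0 Gy that scored from 99.31 to 419.56. In cluster F, a 6015 bp peak at 5 Gy (chr19:58380741-58386755, score 3100) lay over 3 at 0 Gy, the longest of 4163 bp.

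The reverse also occurred. In cluster F, 3 peaks at 5 Gy of 1212 to 1720 bp, which scored from 352.46 to 673.06, lay against 1 peak of 4594 bp at 0 Gy (chr19:58054726-58059319, score 3157.48). In cluster B, 3 peaks at 5 Gy of 698 to 1499 bp, with scores up to 786.72, lay against 1 peak of 4006 bp at 0 Gy (chr19:23594949-23598954, score 3100).

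Within the clusters the median distance to the next peak was 2347.5 bp in the 5 Gy list (95% interval 1738 to 2933) and 1504 bp in the 0 Gy list (1109 to 2096). Outside the clusters it was 3322 bp at 5 Gy (2759 to 4017) and 2344 bp at 0 Gy (2003 to 2973). Cluster B was the most closely spaced, with 1246 bp at 5 Gy and 871 bp at 0 Gy. Joined across distances of up to 10 kb, the cluster peaks formed 157 regions at 5 Gy and 178 at 0 Gy. A region with no second peak made up 35.7% of these at 5 Gy and 30.9% at 0 Gy, against 45.0% and 41.8% in the rest of the chromosome. Regions of at least 5 peaks held 50.1% of the cluster peaks at 5 Gy and 61.6% at 0 Gy, against 44.6% and 55.8% of the peaks in the rest.

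At 5 Gy the region with the most peaks in the clusters was in cluster B, with 32 peaks over 78.5 kb (chr19:23520595-23599047) and 28 peaks of the 0 Gy list in the same stretch. The fullest region in the rest of chromosome 19, picked in each list separately, had 27 peaks at 5 Gy and 34 at 0 Gy. These need not be the same region. The peaks in this stretch of cluster B covered 31.6 kb at 5 Gy and 36.2 kb at 0 Gy. In cluster E, 12 peaks at 5 Gy and 14 at 0 Gy lay between 53056330 and 53089486, covering 16.7 and 17.7 kb. In cluster F, chr19:58318800-58386616 held 15 peaks at 5 Gy and 19 at 0 Gy, the most of any cluster region formed in the 0 Gy list, with 24.8 kb covered at 5 Gy and 24.3 kb at 0 Gy. Cluster D had 4 peaks at 5 Gy and 8 at 0 Gy in chr19:44341197-44347709, and the highest score there was 133.81 at 5 Gy and 487.19 at 0 Gy.

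Parts of each cluster held no peak of either list. The longest such stretch was 449 kb in cluster B (chr19:22398577-22847271, 9.97% of the cluster), 263 kb in cluster A (chr19:11778123-12040715, 29.2%), 242 kb in cluster C (chr19:37978757-38220903, 13.5%) and 182 kb at the end of cluster D (26.0%). It was 103 kb at the start of cluster F and 96.0 kb in cluster E (chr19:53758082-53854041, 5.998%). Of the 100 kb windows, 26.2% at 5 Gy and 19.6% at 0 Gy were without a peak in the clusters, against 46.9% and 44.3% in the rest of chromosome 19, stretches over 1 Mb without a peak left aside.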

How the data were processed

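The authors trimmed reads with cutadapt 1.9.1 and aligned them with Bowtie2 2.2.4 to hg19, per the submitters' processing notes. The deposited lists give chromosome, start, end, a name beginning with MACS, and a peak score in units the files do not define. The list names carry a string of numbers, and the sources used here do not state which of the caller's settings these give. Peaks were called per dose on 1 HuR library over 1 IgG library, judging from the list names.

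Members had their midpoint in an interval, with interval edges and lists chosen with earlier results of these data known. The split at a score of 1000 for lengths was also chosen after seeing the data. Overlap of at least 1 bp counted as shared. Shares have Wilson intervals, differences of shares Newcombe intervals, medians intervals from order statistics, differences and ratios of medians a combination of both intervals, densities exact Poisson intervals, the 5 Gy number over the 0 Gy number a Wilson interval of its share, and ratios of densities or of such dose ratios log-scale intervals from the counts. They treat peaks as independent. Python 3.11.15 with numpy 2.4.6, pandas 2.3.3 and scipy 1.17.1 was used. Shared counts were equal with bedtools 2.31.1, and counting was tested on simulated lists. Peaks were named by rule: the longest per cluster, the 5 highest without a counterpart, the 5 largest rises and falls in rank of score with scores of 3100 and over tied, those over the most peaks of the other list (of 3 per list, 2 are printed), and the longest empty stretch. Expression libraries, gene names and sequences were not analysed here.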

Additional observations from a re-analysis of the deposited data

How the results depend on the processing

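No paired analysis was possible because no group had a second library. Of 145 values recomputed for 11 results, 132 stayed inside the 95% interval of the value they replace, 12 fell outside it, and 1 difference whose interval excluded 0 turned its sign; leaving out each cluster in turn took 1 value outside, the density ratio, at 1.97 at 5 Gy without cluster E. Differences whose interval included 0 turned their sign 10 times, so their direction was not resolved: that in shared peaks at 5 Gy (0.21 points) 6 times, down to -4.41 points, that in median length at 5 Gy once (-2.0 bp) and at 0 Gy 3 times (up to 48.0 bp). The density ratio (2.24 at 5 Gy and 2.51 at 0 Gy) was 3.75 and 3.94 against all other chromosomes, and 1.96 and 2.2 without peak-free stretches over 1 Mb. At 0 Gy it was 2.24 at scores of at least 100 and 2.23 with peaks within 1 kb joined. At scores of at least 100 the difference in median length (13.5 bp at 5 Gy and -16.0 bp at 0 Gy) was 112.5 bp (95% interval 11.6 to 225.9) and 48.0 bp (-12.1 to 134.7). The 0 Gy difference in shared peaks (-7.73 points) was -1.32 against the other chromosomes and -1.52 at scores of at least 100. That in peaks scoring at least 1000 at 0 Gy (-4.72 points) was 0.047 against the other chromosomes. Its interval reached 0 at both doses without cluster B, at 5 Gy also with high scores taken from 3000 (-2.34 points) and against the other chromosomes (-0.78), and at 0 Gy also at scores of at least 100 (-4.83). The 5 Gy peak number, 71.8% of that at 0 Gy, was 88.2% with peaks within 10 kb joined. The ratios of lengths of high-scoring peaks stayed above 1 under each of their 13 settings at both doses. The causes were not tested. Depth is unknown and limits each comparison of number and score.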
